A study of Rattus norvegicus with 4 samples.

Results

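Neutrophils were described in the esophagus of rats given a single 35 Gy X-ray dose and killed 7 days later. They were 720 of the 9744 barcodes kept in that library and of 40724 kept in the series. A barcode counted as a neutrophil when its S100a8 and S100a9 counts made up at least 100 per 10000 unique molecular identifiers (UMIs), it held at least 2 UMIs of Csf3r, Cxcr2, Il1r2 and G0s2 together, these outnumbered the UMIs of the monocyte genes Fcnb, Plac8, Vcan and Ms4a6a, and it held fewer than 3 C1qa, C1qb and C1qc UMIs. Kept barcodes had at least 500 UMIs, of which at most 20% were mitochondrial. The rule uses measured values, so the levels of its 13 genes describe the choice and nothing more.

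Esophagi of male Sprague-Dawley rats aged 6 weeks were irradiated over the esophageal region, and tissue from 5 rats per group was pooled into 1 single-cell library (10x Genomics Chromium 3′ chemistry). Control rats were given 5 fractions of 0 Gy, single-dose rats 1 fraction of 35 Gy, and both pools were collected at day 7. For the remaining 2 pools the dose was split into 5 daily fractions of 7 Gy, with collection at day 7 in one and day 14 in the other. Every tissue was kept cold, shipped, digested with enzymes and depleted of dead cells before capture, and what these steps did to the share of each cell type was not tested. With 1 pool per group no difference has a replicate check and no test was made. The ranges given after a value are its 95% interval, which covers counting error and nothing else.

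Neutrophils are short-lived granulocytes that leave the blood in response to chemoattractants and arrive early in injured tissue. Their granules are filled in the bone marrow in an order, from azurophil over specific to gelatinase granules, and transcripts of granule proteins fade as the cell matures. In tissue the cells turn to making cytokines and chemokines, many of them under the control of NF-kB, and they respond to interferons with a set of antiviral genes.

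Interferon-stimulated and NF-kB feedback genes carry much of what follows, and promoters of members with a match to the element known for each are shown for that reason: Ifit3, Oas1a and Isg20 for the interferon-stimulated genes, and Nfkbia for the NF-kB feedback genes. Each sequence is the 250 bases before the annotated start in RefSeq (build GRCr8), 5′ to 3′ on the gene's strand, from chr1:241527076-241527325 (plus strand), chr12:41330216-41330465 (plus), chr1:142239809-142240058 (plus) and chr6:78597073-78597322 (minus). Capitals mark GAAA, any 2 bases and GAAA again, the core of the interferon-stimulated response element, or in Nfkbia GGGA, any 1 base and TTTCC, a common form of the NF-kB site, each read on both strands.
Ifit3: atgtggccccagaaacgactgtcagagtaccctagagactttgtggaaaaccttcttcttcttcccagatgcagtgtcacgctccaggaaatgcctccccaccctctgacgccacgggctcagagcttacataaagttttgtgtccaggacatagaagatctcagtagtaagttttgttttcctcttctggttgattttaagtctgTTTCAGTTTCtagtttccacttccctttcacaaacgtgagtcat
Oas1a: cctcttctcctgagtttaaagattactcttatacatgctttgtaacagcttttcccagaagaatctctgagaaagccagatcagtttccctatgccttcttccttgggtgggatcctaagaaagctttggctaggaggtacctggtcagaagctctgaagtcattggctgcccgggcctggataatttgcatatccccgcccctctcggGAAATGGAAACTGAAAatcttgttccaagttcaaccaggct
Isg20: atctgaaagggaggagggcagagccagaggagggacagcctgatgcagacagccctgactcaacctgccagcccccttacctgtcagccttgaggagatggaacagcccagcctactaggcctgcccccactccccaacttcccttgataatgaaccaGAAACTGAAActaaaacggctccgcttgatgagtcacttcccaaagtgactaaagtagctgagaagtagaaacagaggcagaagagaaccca
Nfkbia: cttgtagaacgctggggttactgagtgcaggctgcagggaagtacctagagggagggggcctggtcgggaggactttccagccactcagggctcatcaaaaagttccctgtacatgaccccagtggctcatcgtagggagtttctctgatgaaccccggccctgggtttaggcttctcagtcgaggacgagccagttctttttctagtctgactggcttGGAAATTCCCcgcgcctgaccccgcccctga
The marked letters began 44, 41, 92 and 31 bases before the start in that order, and in Oas1a they were 2 overlapping matches. Of 34 interferon-stimulated genes listed, 25 had a RefSeq promoter, and 13 of these (52.0%) held the interferon letters, against 3.41% of all 33469 promoters. Of 17 NF-kB feedback genes, 15 had a promoter, of which 4 (Nfkb2, Nfkbia, Nfkbiz and Tnfaip3; 26.7%) held the NF-kB letters, against 0.314% of all promoters. A listed gene counted when any of its promoters matched, whereas the share of all promoters counts each promoter, so these shares differ in unit. The motifs can overlap through the letters GAAA, and a match is a description of the sequence only.

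The rule found 7.39% (6.88 to 7.93) of kept barcodes in the single-dose library. It found 6 barcodes in the control (0.0508%, 0.0186 to 0.110), 8 in the fractionated day 7 library (0.0881%, 0.0380 to 0.173) and 8 in the fractionated day 14 library (0.0794%, 0.0343 to 0.156). The single-dose share lay above the intervals of the other 3 libraries, which overlapped each other. Libraries shared between 26 and 38 barcode sequences per pair, and no shared sequence was a neutrophil in both libraries. No neutrophil of another library had a sequence found in the single-dose library. Whether single-dose neutrophils were among the shared sequences was not counted. In the single-dose library 15.2% of barcodes exceeded the mitochondrial limit, against 5.49% in the control, 16.6% and 3.71%. Neutrophil barcodes were shallow, with a median of 1044 UMIs and 434.5 genes, against 6472.5 UMIs in the other 9024 kept barcodes, and 327 of them (45.4%) held under 1000 UMIs. All deposited barcodes held at least 500 UMIs, so cells with less RNA lie outside what could be counted here. With at least 1000 UMIs required of every barcode, the single-dose share was 4.46%.

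**Figure D1:**
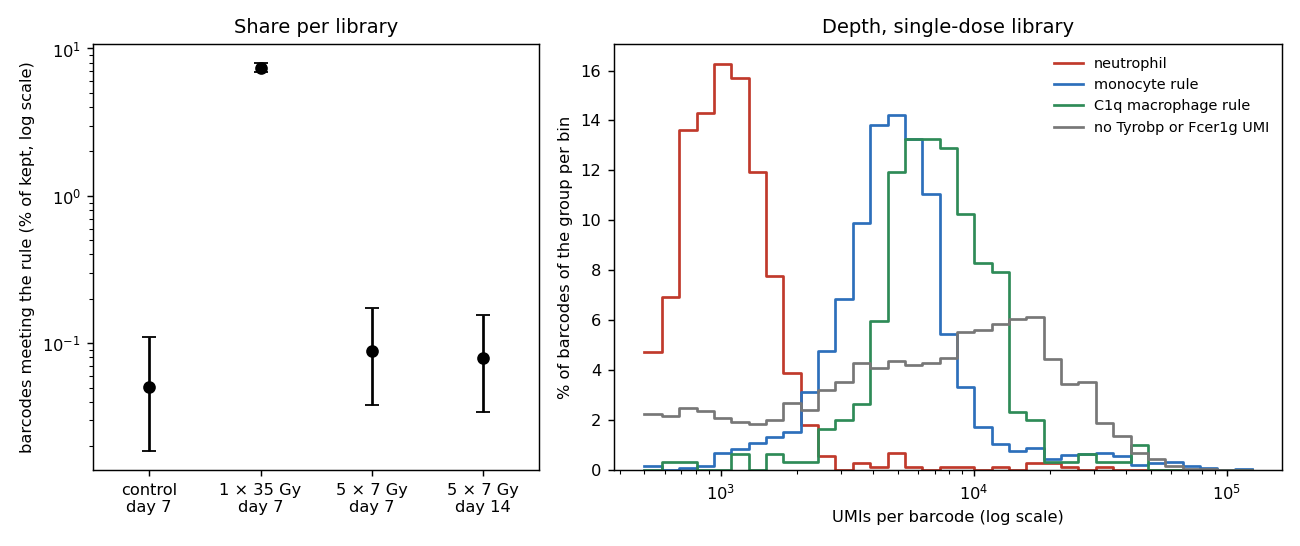
Left, percent of kept barcodes that meet the neutrophil rule in each library on a log axis, with exact 95% intervals: the single-dose library stands at 7.39%, the other 3 at 0.0508% to 0.0881%. Right, UMIs per barcode in the single-dose library (log axis), as percent of each group's barcodes per bin: neutrophils have a median of 1044 UMIs and monocyte-rule barcodes 4878.

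The S100 level varied widely among members. S100a8 and S100a9 together made up a median of 1724 per 10000 UMIs in members (quartiles 794 and 2713, range 102 to 4490). The 30 members from 100 to under 200 per 10000 had a median of 158, and the 34 barcodes from 50 to under 100 that met every other criterion had 68.0. Both had a median of 7.00 receptor-gene UMIs. A further 328 barcodes reached the S100 level without being members, 290 of them because they held fewer than 2 receptor-gene UMIs. Of the rule's receptor genes, Csf3r, which binds the growth factor G-CSF, had 661 UMIs in 402 members, Il1r2, a decoy receptor for IL-1, 1532 in 483, and Cxcr2, the receptor for neutrophil chemokines, 108 in 103.

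Levels are counts per 1000000 UMIs (CPM), summed over a group's barcodes. They were compared with 2703 monocyte-rule barcodes of the same library and with all other kept barcodes. Monocyte-rule barcodes held at least 3 UMIs of Tyrobp and Fcer1g and at least 2 of the monocyte genes. They also held more monocyte-gene than receptor-gene UMIs and fewer than 3 C1q UMIs, and did not meet the neutrophil rule. For reference, 302 barcodes with at least 10 C1q UMIs and 3 UMIs of Tyrobp and Fcer1g (macrophage rule) and 3271 barcodes without Tyrobp or Fcer1g UMIs, which should lack myeloid genes, were read in the same way. Of 11350 genes with at least 20 UMIs in neutrophils and monocyte-rule barcodes, 336 (2.96%) were at least 4-fold higher in neutrophils and 767 (6.76%) at least 4-fold lower. Against all other barcodes 807 of 14141 (5.71%) were higher and 1035 (7.32%) lower. The median log2 ratio over all genes was -0.46 against the monocyte-rule barcodes and -0.38 against the rest, and S100a8 (72726 CPM) and S100a9 (91012 CPM) are part of every neutrophil total. Set relative to that median, 539 genes were higher and 439 lower than in monocyte-rule barcodes, and 1059 higher and 518 lower than in all other barcodes. With S100a8 and S100a9 left out of the totals the counts were 422 and 546, and 978 and 650. With every barcode weighted equally they were 420 and 1578, and 509 and 2911. All these groups were taken from 1 library by rule, so every difference is a description.

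Neutrophil markers that the rule did not use were also high in these barcodes. Of 14 such markers 12 were detected, summing to 5867 CPM in neutrophils, 516 in monocyte-rule barcodes and 711 in barcodes without myeloid UMIs. Ltf and Cxcr1 were at 0, where the floor of 3 UMIs over the group equals 3.09 CPM. Abundance was ranked among genes with a symbol, without mitochondrial, ribosomal protein and haemoglobin genes. The most abundant after the S100 genes were Fth1, the ferritin heavy chain (39236 CPM), and Tmsb4x, an actin-binding peptide (13961). Slpi, a secreted inhibitor of neutrophil elastase (13673), Tspo, a mitochondrial outer membrane protein (8240), and Lyz2, lysozyme (7799), followed. Features without a symbol were left out of the ranking, among them AC134224.3 at 34591 CPM and AABR07034362.2 at 10014. Fth1 was 3.16-fold (3.12 to 3.19) and Tspo 3.98-fold (3.88 to 4.07) higher than in monocyte-rule barcodes, while Lyz2 was 2.01-fold (1.96 to 2.05) lower. Markers of other cell types were detected at varied levels. Those of B and plasma cells summed to 1.03 CPM with Ms4a1 and Jchain at 0, mast cell markers to 2.06 CPM with Kit, Mcpt1l1, Fcer1a and Ms4a2 at 0, and platelet markers to 6.17 CPM. The 5 eosinophil and basophil markers summed to 13.4 CPM, above the 1.48 of monocyte-rule barcodes and the 0.701 of all other barcodes, with Ccr3 at 12.3 CPM against 0.681 in monocyte-rule barcodes and Epx, Il5ra and Alox15 at 0. Glia markers (51.4 CPM against 43.1) and skeletal muscle markers (6.17 against 2.76) also exceeded all other barcodes. Fibroblast markers summed to 566 CPM against 1570 in all other barcodes, dendritic cell markers to 193 against 1929 and smooth muscle markers to 192 against 608. The part of these cells in the neutrophil sums was not tested by marker. All 8 epithelial markers were detected, at 2347 CPM summed against 6438 in the other barcodes. All 10 macrophage markers were detected too, at 675 CPM against 2046 in the other barcodes, with Apoe alone at 577. Their sum of 20069 CPM in the C1q group includes C1qa, C1qb and C1qc, which the rules of both groups use.

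Genes of the later granules were high in neutrophils, several of them far above monocyte-rule barcodes. Of 9 specific granule genes with enough UMIs 6 were at least 2-fold higher than in monocyte-rule barcodes and 2 lower, and of 10 genes of gelatinase granules and secretory vesicles 7 were higher and 0 lower. Over all genes 8.77% were 2-fold higher and 27.6% lower. Mmp8, neutrophil collagenase, had 1064 UMIs in 276 of 720 neutrophils, or 1095 CPM against 5.73 in monocyte-rule barcodes, a ratio of 191 (156 to 237). Retnlg, resistin-like gamma, stood at 1037 CPM against 6.81. Pglyrp1, which binds bacterial peptidoglycan, reached 1683 CPM against 9.87, in 470 neutrophils. Camp, the cathelicidin precursor, stood at 225 CPM against 6.64 and Mmp9, gelatinase B, at 125 against 2.04. In barcodes without myeloid UMIs Retnlg stood at 0.236 CPM and Pglyrp1 at 2.36, with the other 3 between them. When every barcode was thinned to 500 UMIs, Mmp8 was found in 26.9% of neutrophils, 0.296% of monocyte-rule barcodes and 0.122% of barcodes without myeloid UMIs, which before thinning had median depths of 1044, 4878 and 7258 UMIs. No kept barcode was too shallow for this. Leaving out the 71 monocyte-rule barcodes at the S100 level of the rule raised the log2 ratio of Mmp8 from 7.58 to 10.50, and weighting every barcode equally lowered it to 6.28.

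Granule genes differed among themselves. Lcn2, which binds bacterial siderophores, stood at 168 CPM in neutrophils, 126 in monocyte-rule barcodes and 560 in barcodes without myeloid UMIs. Of 8 azurophil granule genes listed 3 had enough UMIs, of which 2 were at least 2-fold higher than in monocyte-rule barcodes and 0 lower. Their median log2 ratio of 2.42 depended on this filter. It was 0.86 with at least 100 UMIs required per gene and 0 with at least 1. Among azurophil genes, made at the promyelocyte stage, Mpo, Prtn3, Ctsg, Bpi and Ms4a3 had 0 UMIs in neutrophils, whereas Elane, neutrophil elastase, had 57 UMIs in 53 of 720 barcodes (58.7 CPM against 1.02 in monocyte-rule barcodes). Cebpe, the factor that drives specific granule genes, had 1 UMI against 22.5 CPM in monocyte-rule barcodes. Of 19 cell cycle genes 1, Rrm2, was 2-fold higher than in monocyte-rule barcodes and 7 were lower, near the 8.77% and 27.6% of all genes. The list's median log2 ratio of -0.92 was -0.08 with every barcode weighted equally. By summed counts Mki67 stood at 38.1 CPM against 78.9 and Top2a at 31.9 against 69.8. These sums include the 12 keratin-rich barcodes of sub-cluster 5 described below, which held 17.2% of neutrophil UMIs. There 5 of 10 cell cycle genes were at least 2-fold higher than in the other neutrophils, against 32.3% of all genes. In each of sub-clusters 1 to 4 at most 1 of 10 was.

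Surface receptors sense microbes and damage. Of 22 pattern recognition and Fc receptor genes 11 were at least 2-fold higher than in monocyte-rule barcodes, 8 lay within 2-fold and 3 were lower, where 8.77% of all genes were higher and 27.6% lower. Clec4e, the C-type lectin Mincle, stood at 280 CPM against 18.2, a ratio of 15.4. Its relatives Clec4d and Clec7a, the beta-glucan receptor Dectin-1, were 5.72-fold (5.21 to 6.28) and 5.62-fold (5.24 to 6.04) higher. Trem1, an amplifier of inflammatory signals, was 3.72-fold (3.41 to 4.05) higher, and Fcar, the IgA receptor, stood at 65.9 CPM against 0.567. Cd14, an endotoxin co-receptor singled out after its values were seen, went the other way, at 24.7 CPM against 425. At 500 UMIs per barcode Clec7a was found in 44.3% of neutrophils, 11.7% of monocyte-rule barcodes and none of the barcodes without myeloid UMIs. Before thinning, 499 of 720 neutrophils held it.

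Of 13 chemoattractant receptor genes 6 were at least 2-fold higher than in monocyte-rule barcodes and 2 lower, where 8.77% and 27.6% of all genes were. Ccr1, a receptor of inflammatory chemokines, stood at 462 CPM against 250, and Ltb4r, the leukotriene B4 receptor, at 82.3 against 24.6. C5ar1, the receptor of complement fragment C5a, was 1.36-fold (1.17 to 1.58) higher, at 192 CPM. Of 14 adhesion and migration genes 4 were at least 2-fold higher and 2 lower, against the same shares of all genes. Prok2, a secreted attractant peptide, had 94 UMIs in 79 neutrophils, and these made up 78.3% of all its UMIs in the kept barcodes. Neutrophils likewise held 74.0% of the UMIs of Nlrp12, an inhibitory sensor, 70.7% of Mmp8 and 67.5% of Ifit1bl, although they were 7.39% of barcodes.

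Cytokine and chemokine genes lay on both sides of the monocyte level. Of 22 such genes 7 were at least 2-fold higher than in monocyte-rule barcodes and 6 lower, against 8.77% and 27.6% of all genes, so the lower count is near the background. Il1b, interleukin-1 beta, had 3642 UMIs in 588 of 720 neutrophils, or 3748 CPM (3627 to 3871), 7.52-fold (7.24 to 7.82) above monocyte-rule barcodes. At 500 UMIs per barcode it was found in 67.4% of neutrophils, 18.5% of monocyte-rule barcodes and 0.673% of barcodes without myeloid UMIs. Il1rn, the antagonist of the same receptor, was at 1168 CPM against 160, 7.32-fold (6.83 to 7.85) higher. Nlrp3, the inflammasome sensor, was at 407 CPM against 97.0, Casp1, which cleaves the IL-1 precursor, lay at 88.5 CPM against 87.9, and Il18 at 14.4 against 158. Cxcl2, a ligand of Cxcr2, stood at 3546 CPM against 189, 18.8-fold (17.9 to 19.7) higher. Ccl6 was at 3035 CPM against 243, Osm, oncostatin M, at 438 against 51.9, and Ccl3 at 757 against 130. Tnf had 0 UMIs in every kept barcode of this library, of any cell type. Whether its transcripts could be counted here was not tested, so the value is not read as a lack of expression.

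Those totals came from very different numbers of cells. The 36 barcodes (5% of members) with the most Il1b UMIs held 27.1% of them, and the corresponding share was 20.1% for Ccl6 and 16.4% for Sod2. For Cxcl2, found in 207 members, the top 36 held 62.8%, with 192 UMIs in a single barcode. Ccl3 UMIs were found in 50 members, and the top 36 held 98.1%.

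Interferon-stimulated genes were higher in neutrophils than in monocyte-rule barcodes for most of the list. Of 32 measured, 20 were at least 2-fold higher than in monocyte-rule barcodes and 4 lower, with a median log2 ratio of 2.06 against -0.46 over all genes. Against all other barcodes 25 were higher and 4 lower, where 11.7% of all genes were 2-fold higher and 32.8% lower. Ifit3, an antiviral protein whose promoter is printed above, had 1900 UMIs in 456 neutrophils, or 1955 CPM against 30.4, a ratio of 64.4 (58.5 to 71.0). At 500 UMIs per barcode it was found in 49.2% of neutrophils, 1.85% of monocyte-rule barcodes and 0.397% of barcodes without myeloid UMIs. Isg15, a ubiquitin-like modifier, stood at 1833 CPM against 56.3, and Oas1a, an oligoadenylate synthetase, at 978 against 14.0. Slfn4, a myeloid schlafen gene, was at 1534 CPM against 270. Ifit1bl, a relative of Ifit1 outside the list, reached 1679 CPM against 8.51. The 4 genes lower than in monocyte-rule barcodes, named after their values were seen, were Mx1 and Mx2 with 1 UMI each, Bst2 at 24.7 CPM against 99.2, and Dhx58 at 4.12 against 10.1. In the C1q group Ifit3 stood at 3.18 CPM and Isg15 at 16.7, below monocyte-rule barcodes. With at least 100 UMIs required per gene, which leaves fewer genes in the list, its median was 1.17.

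**Figure D2:**
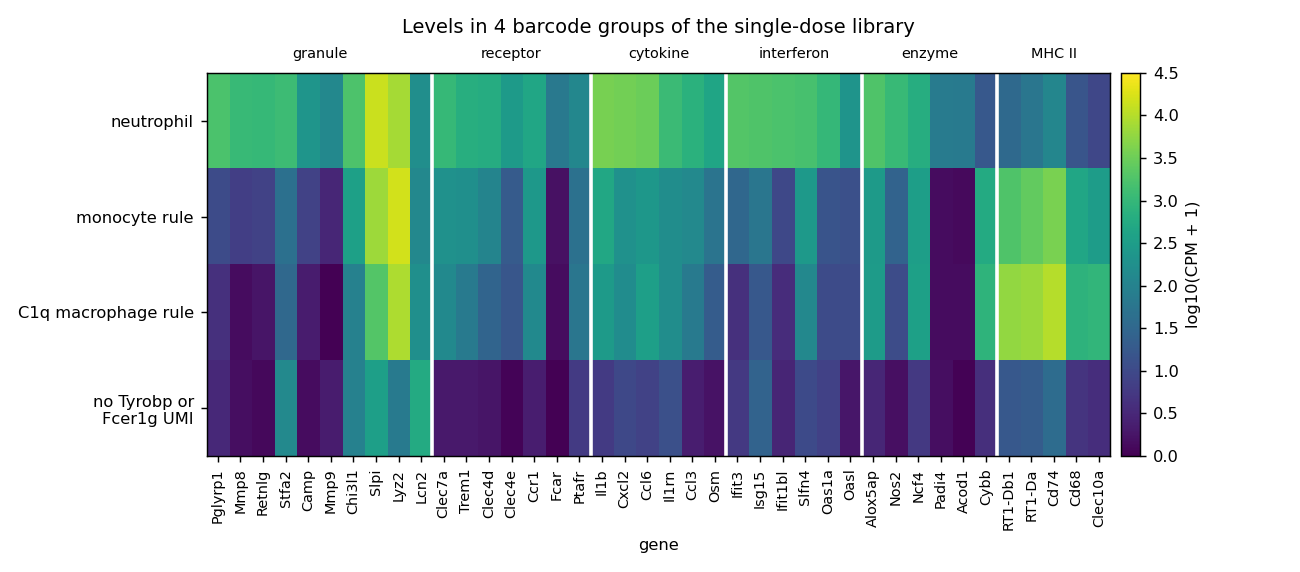
Levels as log10(CPM + 1) of 40 genes (columns, grouped by role) in neutrophils, monocyte-rule barcodes, C1q macrophage-rule barcodes and barcodes without Tyrobp or Fcer1g UMIs (rows) of the single-dose library. Cytokine and interferon genes, and the granule genes other than Lyz2 and Lcn2, are brightest in the neutrophil row (Il1b 3748 CPM, Ifit3 1955 CPM), and Cybb and the genes of the MHC II block, which also holds Cd68 and Clec10a, are not.

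Enzymes of the oxidative burst were uneven. Cybb, the catalytic subunit of the phagocyte NADPH oxidase, had 16 UMIs in neutrophils (16.5 CPM) against 560 CPM in monocyte-rule barcodes, a 34.0-fold (20.9 to 59.5) lower level. Its partner Cyba was 1.94-fold (1.80 to 2.09) lower, the cytosolic subunit Ncf4 1.90-fold (1.75 to 2.07) higher and Rac2 2.01-fold (1.83 to 2.19) higher. Nos2, inducible nitric oxide synthase, stood at 1078 CPM against 26.4 and was found in 385 of 720 of them, and neutrophils held 56.8% of its UMIs in the library. At 500 UMIs per barcode it was found in 35.8% of neutrophils, 0.925% of monocyte-rule barcodes and none of those without myeloid UMIs. Acod1, which makes itaconate, was at 68.9 CPM against 0.284, and Padi4, the histone-citrullinating enzyme of extracellular traps, at 73.1 against 0.397. Alox5ap, the activating protein of leukotriene synthesis, was 6.31-fold (5.98 to 6.67) higher, at 1808 CPM. Arg1, chosen after its values were seen, had 1 UMI, against 38.0 CPM in monocyte-rule barcodes, and Arg2 stood at 21.6 against 0.908. Cd274, the checkpoint ligand PD-L1, was 21.2-fold (17.0 to 26.5) higher, at 184 CPM.

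MHC class II genes present antigen to helper T cells. The MHC list holds genes of both classes and also Tap1, Psmb8, Psmb9, Cd74, Ciita, Cd80, Cd86 and Cd40. Of its 17 measured genes 5 were at least 2-fold higher than in monocyte-rule barcodes and 9 lower, against 8.77% and 27.6% of all genes. RT1-Db1 stood at 32.9 CPM against 1845, RT1-Da at 56.6 against 2598 and Cd74, the invariant chain, at 116 against 3922. Those values lay nearer to barcodes without myeloid UMIs, at 16.3, 19.7 and 38.0 CPM. The class I gene RT1-A2 was 2.04-fold (1.84 to 2.25) and the immunoproteasome gene Psmb9 2.51-fold (2.24 to 2.80) higher. Slamf9, a receptor of the SLAM family, had 0 UMIs in neutrophils and was at least 27.0-fold lower than in monocyte-rule barcodes, taking 3 UMIs as the floor over the group. Cd68, a lysosomal protein of macrophages, was at 14.4 CPM against 461, and Clec10a at 8.23 against 310. How reads shared by near-identical copies, such as the RT1 and stefin genes, were counted was not stated by any source used, so single members of those families are uncertain.

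Of 17 NF-kB feedback genes 8 were at least 2-fold higher than in monocyte-rule barcodes and 0 lower, and in this and the next lists the shares of all genes to set beside the counts are 8.77% higher and 27.6% lower. Sod2, the mitochondrial superoxide dismutase, was 4.82-fold (4.67 to 4.97) higher, at 5322 CPM, and Nfkbia, the inhibitor IkB-alpha, 5.04-fold (4.69 to 5.42) higher, at 993 CPM. Of 19 survival and apoptosis genes 8 were higher and 4 lower, the latter near the share of all genes. Bcl2l1, which encodes the survival protein Bcl-xL, was at 128 CPM against 30.9, Birc3 at 92.6 against 12.1, and the death receptor Fas at 56.6 against 7.66. Bcl2a1, a survival gene of granulocytes, was at 871 CPM against 784. Of 26 glycolysis and hypoxia genes 4 were higher, near the share of all genes, and 1 was lower. Slc16a3, a lactate exporter, was 11.5-fold (10.0 to 13.2) higher and Hk2, hexokinase, 2.05-fold (1.84 to 2.28). Of 19 p53 target genes 4 were higher (Btg2, Cdkn1a, Fas and Pmaip1) and 1, Bax, lower. Cdkn1a, the cell cycle inhibitor p21, was at 367 CPM against 110, while Mdm2 lay at 44.2 against 36.3.

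Of 20 transcription factors of the myeloid lineages 8 were 2-fold higher in neutrophils and 7 lower, against 8.77% and 27.6% of all genes. Cebpb was at 1322 CPM against 604, Cebpd at 830 against 188, Rara, the retinoic acid receptor, at 622 against 194, Max at 457 against 64.3 and Nfe2 at 120 against 24.9. Irf5, an interferon regulatory factor of monocytes and macrophages, was at 5.14 CPM against 81.7. Of 20 immediate early genes 8 were higher and 1 lower, with Junb at 1887 CPM against 575 and Atf3 at 115 against 14.4.

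**Figure D3:**
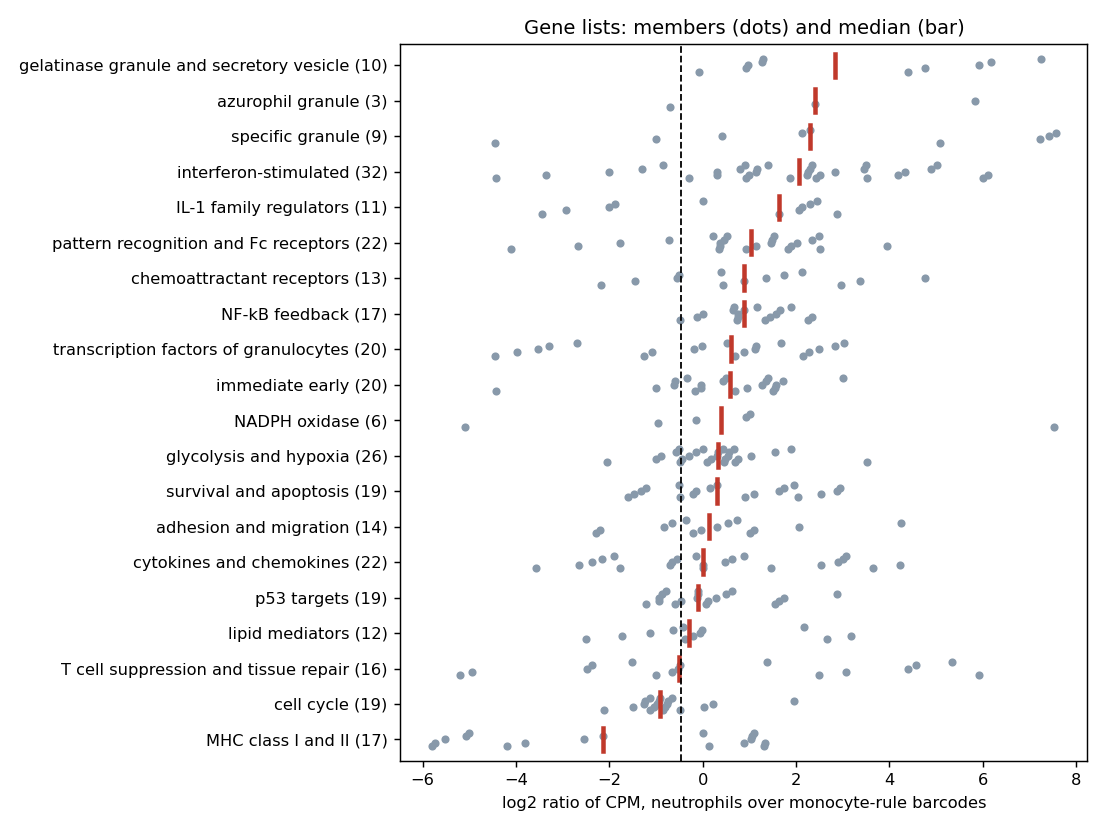
Log2 ratio of CPM in neutrophils over monocyte-rule barcodes for the measured members of 20 gene lists (grey dots; number of members in brackets), with the list median (red bar) and the median over all genes (-0.46, dashed). The interferon-stimulated list has its median at 2.06 and the MHC list, which also holds genes such as Tap1 and Cd86, at -2.13. In the MHC list the class I gene RT1-A2 lies on the right and the class II genes RT1-Da and RT1-Db1 on the left.

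Neutrophils differed among themselves along their S100 content. Members were divided into 5 bands of S100a8 and S100a9, and other genes were read as CPM of the UMIs without these. The 10 barcodes over 5000 UMIs were left out, and all of them came from the lowest band. Mmp8 stood at 69.7 (25.6 to 152) in the 79 members of the lowest band, then at 89.0, 466, 2016 and, in the 91 members of the highest band, 5484 (4987 to 6017). Retnlg ran from 34.8 (7.18 to 102) to 5496 (4999 to 6029) and Camp from 46.4 to 1018. Of 4 cytokine genes read in this way, Cxcl2 and Ccl3 ran in the other direction by summed counts. Cxcl2 went from 11147 (10453 to 11875) to 2405 (2080 to 2766) and Ccl3 from 2868 (2521 to 3249) to 12.3 (0.311 to 68.4), a single UMI. The share of barcodes with Cxcl2 changed less, from 35.4% in the lowest band to 29.7% in the highest, and that of Ccl3 went from 15.2% to 1.10%. The ranges do not cover the uneven spread of Cxcl2 UMIs over barcodes described above. Il1b was at 6177 in the lowest band, 8770 in the next and 2478 in the highest. Osm rose far less than the granule genes, from 418 (293 to 579) to 773 (594 to 989), and was found in 29.1% and 37.4% of these barcodes. Nos2 lay between 1344 and 1920 and Isg15 between 1865 and 3521 in the 5 bands, without an order that followed the S100 level throughout. The S100 genes are part of the rule, but the genes read across the bands are not.

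**Figure D4:**
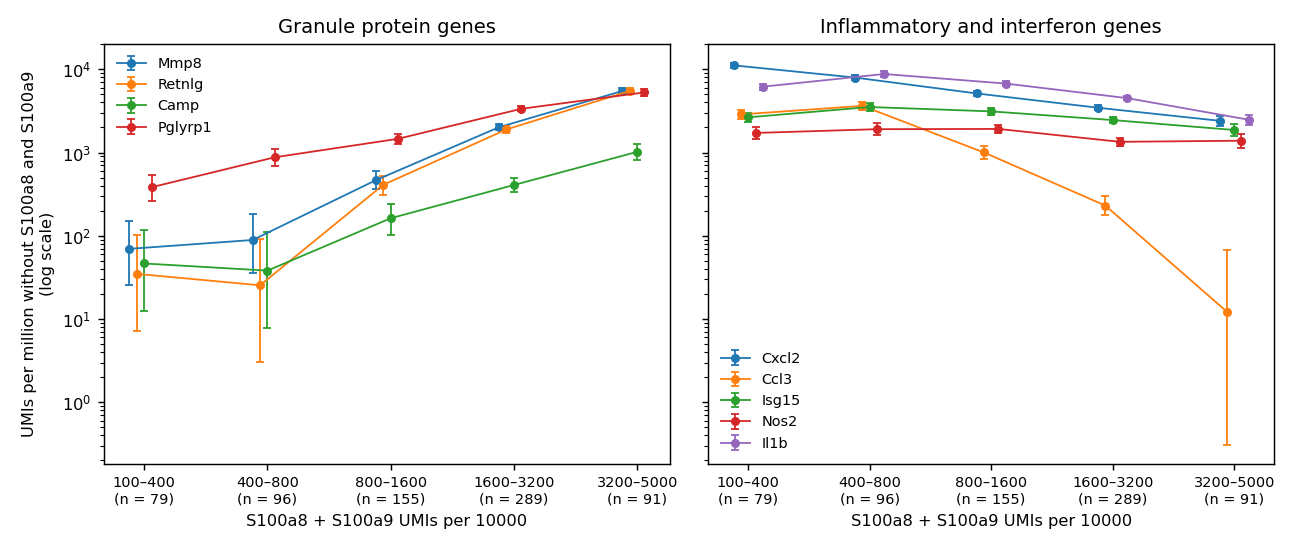
CPM with S100a8 and S100a9 left out of the total (log axis), against 5 bands of S100a8 and S100a9 per 10000 UMIs, with exact 95% intervals. Mmp8 goes from 69.7 to 5484 and Retnlg from 34.8 to 5496 over the bands, while Ccl3 goes from 2868 to 12.3.

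Clustering the 720 barcodes with the rule genes left out gave 5 sub-clusters. They are described by the genes with the largest ratio, which were chosen for that ratio. Listed genes could also be among the variable genes that made the division. Their counts per sub-cluster therefore describe the division and are no separate evidence for it. The division depended on the setting: at resolution 0.3 most barcodes of sub-clusters 3 and 4 fell into the same cluster. Sub-cluster 2 (225 barcodes, 31.2%) was led by the granule genes Olfm4, Retnlg, Mmp9, Mmp8 and Camp, with Retnlg at 2756 CPM against 303 to 605 in sub-clusters 1, 3 and 4. Of 8 specific granule genes 5 were at least 2-fold higher there than in the other neutrophils and 0 lower, where 3.98% of 3874 genes were higher. Of 23 interferon-stimulated genes 12 were lower, against 34.2% of all genes. Its median S100 level was 2786 per 10000. Sub-cluster 3 (162 barcodes, 22.5%) was led by interferon-stimulated genes, Isg20, Isg15, Ifit2, Sp110 and Samd9 among them. Isg15 stood at 6499 CPM there and at 1035 in sub-cluster 1, and 18 of 23 listed interferon-stimulated genes were at least 2-fold higher, against 5.63% of all genes. Of 13 cytokine genes 5 were lower there, against 17.7% of all genes. Sub-cluster 4 (86 barcodes, 11.9%) was led by Ccl3, Cxcl3, Cxcl2, Ebi3, Acod1 and Nfkbia. Cxcl2 reached 24507 CPM there, 21.9-fold (20.3 to 23.6) above the other neutrophils, and was found in 74 of the 86 barcodes. NF-kB feedback genes were 2-fold higher for 11 of 13 and cytokines for 8 of 13, where 6.71% of all genes were. Interferon-stimulated genes were lower for 6 of 23, against 28.1% of all genes.

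At 500 UMIs per barcode Ccl3 seldom occurred in the same barcode as Mmp8 or Retnlg. Retnlg and Cxcl2 showed no such separation, and Mmp8 was not read against Cxcl2. Mmp8 was found in 194 and Ccl3 in 41 of 720, but both in 3. Ccl3 was thus found in 1.55% of Mmp8-positive and 7.22% of Mmp8-negative neutrophils. For Retnlg the shares with Ccl3 were 2.65% and 6.50%, with both genes in 4 barcodes. Cxcl2 was found in 26.5% of barcodes with Retnlg and 25.5% of those without. Of the barcodes with Ccl3, 82.9% also held Cxcl2, against 22.2% of those without Ccl3, and 78.0% held Nos2. Retnlg was found in 52.6% of barcodes with Mmp8 and 9.32% of those without. Isg15 was found in 26.8% of barcodes with Ccl3 and 37.4% of those without. These shares describe barcodes of 1 library and depend on few UMIs each.

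**Figure D5:**
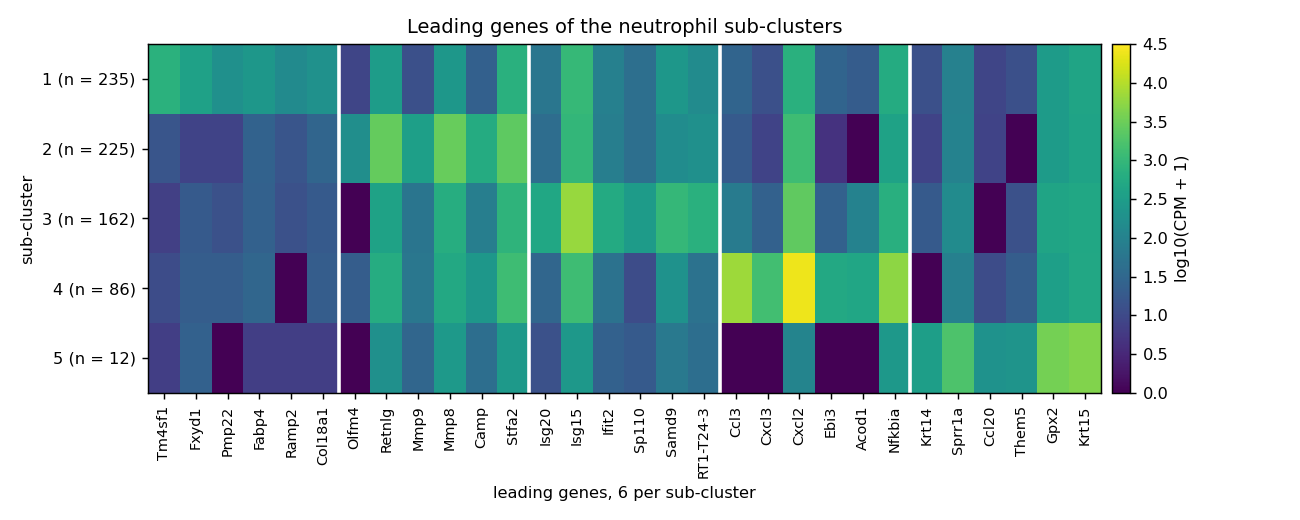
Levels as log10(CPM + 1) of the 6 leading genes of each neutrophil sub-cluster (columns, in blocks) in the 5 sub-clusters (rows). Granule genes are brightest in sub-cluster 2, interferon-stimulated genes in sub-cluster 3 (Isg15 6499 CPM), chemokine genes in sub-cluster 4 (Cxcl2 24507 CPM) and keratin genes in sub-cluster 5.

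The remaining sub-clusters carried genes of other cells. Sub-cluster 1 (235 barcodes, 32.6%) was led by Tm4sf1, Fxyd1, Pmp22, Fabp4, Ramp2 and Col18a1, yet each was found in 8 to 23 of its barcodes. Of the 8 specific granule genes 0 were 2-fold higher and 4 lower there than in the other neutrophils, against 9.65% and 6.94% of all genes. It held 10 of the 15 neutrophil barcodes marked by the doublet caller, and without barcodes over 5000 UMIs the ratio of Tm4sf1 was 13.7 instead of 75.4. Sub-cluster 5 (12 barcodes, 1.67%) was led by Krt14, Sprr1a, Ccl20, Them5, Gpx2 and Krt15. Its barcodes had a median of 12593.5 UMIs and held 17.2% of all neutrophil UMIs, 9 of them held over 5000 UMIs, and 5 were marked as doublets. Interferon-stimulated genes were 2-fold higher there for 1 of 23 and lower for 20, against 32.3% and 29.8% of all genes. Epithelial markers summed to 9222 CPM there and to 832 to 1089 in the other sub-clusters. The part of mixed barcodes in the neutrophil sums was read in 2 ways. Leaving out the 10 barcodes over 5000 UMIs gave 1353 genes at least 4-fold lower than in monocyte-rule barcodes in place of 767. Leaving out doublet calls gave 906 lower and 344 higher, and against all other barcodes 1418 lower and 832 higher.

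In the other libraries the rule left 6 to 8 barcodes, too few for more than a listing. The 6 control barcodes held 205 Cxcl2 UMIs of 5798 in all (35357 CPM, 30682 to 40542), 54 of Il1b and 14 of Isg15. The 8 of the fractionated day 7 library held 0 of Cxcl2, Ccl3, Retnlg and Nos2 among 10411 UMIs, which allows up to 288 CPM each, and 5 of Il1b. The 8 of fractionated day 14 held 332 of Cxcl2, 215 of Il1b, 63 of Retnlg and 17 of Nos2 among 26813. Cxcl2 was thus at 3546 CPM in single-dose neutrophils and at 35357 and 12382 in the control and fractionated day 14 barcodes, a difference that rests on 6 and 8 barcodes.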

How the data were processed

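Single-cell RNA libraries of rat esophagus, 1 pool of 5 rats per group, were read as the UMI counts per gene and barcode that the authors deposited as filtered matrices. Per the submitters' processing notes the builds mRatBN7.2 and rn7 and Cell Ranger 5.0.0 were used; the counting settings are not given in the sources used here. The 4 matrices held 59805782 to 109618791 UMIs in all, over 32623 features, and features with 1 symbol were summed (30017 symbols). Kept barcodes, the neutrophil rule and the comparators are given above. Counts were summed per group and divided by the group total (CPM), with exact Poisson intervals for levels, exact binomial intervals for shares and exact conditional binomial intervals for ratios. Genes needed at least 20 UMIs in the pair of groups. Where 1 group had 0 UMIs, a floor of 3 UMIs over the group gave a bound. There is no test, since each group is 1 library. Doublets were called with Scrublet and kept (15 of 720 neutrophils, 2.08%, and 3.12% of kept barcodes). Sub-clusters came from 1000 variable genes without the rule genes, 15 principal components and Leiden clustering at resolution 0.5. Python 3.11.15, numpy 2.4.6, scipy 1.17.1, pandas 2.3.3, scanpy 1.11.5 and matplotlib 3.10.9 were used, and the ratio and list functions were tested on simulated data.

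The members and the gene lists were chosen with earlier results of these data known. Of 454 symbols in the gene and marker lists 23 matched no feature and were left out. Named genes were the most abundant genes, the genes with the largest ratio to each comparator ranked by the interval bound nearest to 1, the leading and most abundant members of each list (any member of lists with 10 or fewer measured) and the 6 leading genes of each sub-cluster. Cd14, Arg1, Tnf, Mdm2, Isg20, Mx1, Mx2, Bst2, Dhx58, Bax and Rrm2 among list members, and the promoters printed, were chosen after their values were seen.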

Additional observations from a re-analysis of the deposited data

How the results depend on the processing

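No paired analysis was possible because each group is 1 library, and no replicate could be left out. The single-dose share of 7.39% was 4.46% with at least 1000 UMIs per barcode, 8.23% with at most 10% mitochondrial UMIs, 8.28% with at least 1 receptor-gene UMI and 6.49% with at least 3. The share in the fractionated day 7 library was 0.0330% with at least 3 receptor-gene UMIs, and in the fractionated day 14 library 0.0298% with C1q genes at 0. Against all other barcodes, the 1035 genes at least 4-fold lower became 518 relative to the median ratio, 650 with S100a8 and S100a9 out of the totals, 2911 with barcodes weighted equally, 1848 with at least 200 S100 counts per 10000 and 2142 without neutrophils over 5000 UMIs, and the 807 higher became 509 with equal weights. Against monocyte-rule barcodes the 336 higher became 539 relative to the median, 202 with at least 100 UMIs per gene and 865 with at least 1, and the 767 lower became 439, 1578 with equal weights and 1353 without neutrophils over 5000 UMIs. The settings on barcodes over 5000 UMIs and on S100-high comparators were added after seeing the data. Of 335 named gene ratios 149 moved by over 1.5-fold with equal weights, and 327 kept their sign. Of those past 2-fold, 1 changed sign, the log2 ratio of Ccnb1 against monocyte-rule barcodes (0.62 in place of -1.12). The median log2 ratio of the cell cycle list against those barcodes was then -0.08 in place of -0.92. In sub-cluster 5 the ratios of Gpx2 and Sprr1a were 0.483 and 0.759 without barcodes over 5000 UMIs, in place of 10.9 and 16.9. The cause of these changes was not tested. The other settings gave 4 to 6 sub-clusters in place of 5. At resolution 0.3, 149 of 162 barcodes of sub-cluster 3 and 83 of 86 of sub-cluster 4 fell into the same cluster of 235. At resolution 0.8 they lay apart, with 153 of 162 and 85 of 86 in different clusters. With barcodes thinned to 1000 UMIs, 58 of 98 barcodes of sub-cluster 1 and 41 of 49 of sub-cluster 4 shared a cluster. Shallow neutrophil barcodes limit low genes: of 14141 genes 5849 had at most 3 UMIs in neutrophils.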
